A study of Mus musculus with 8 samples.

Results

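The genotype by fraction interaction compares, gene by gene, how far the change of polysomal RNA departs from the change of total RNA when both Lin28 genes are lost. Its members are the 5802 genes present in both deposited count tables, out of 24420 rows of the total RNA table, and 5780 of them had enough counts to be tested (22 did not). The 8 libraries were made from neural tube, labelled brain, of E11.5 mouse embryos and formed 4 groups of 2: wildtype (WT) total RNA, WT polysomal RNA, Lin28a-/-;b-/- double knockout (dKO) total RNA and dKO polysomal RNA. The protocol calls the WT embryos controls, no driver line or conditional allele is named, and the labels do not say whether replicates came from separate embryos, so that each p-value reflects the spread of these libraries alone, which may be technical. For each gene the interaction value is (dKO polysomal minus dKO total) minus (WT polysomal minus WT total) on the log2 scale, which equals the polysomal genotype change minus the total RNA genotype change. A positive value means that the gene's share of the listed polysomal RNA rose more, or fell less, in dKO than its share of total RNA.

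As background, polysomal RNA is RNA that sediments with several ribosomes at a time, so that a change in polysomal RNA that total RNA does not share is often read as a change in ribosome association. Lin28a and Lin28b bind the precursors of the let-7 microRNAs and block their maturation, and they also bind many messenger RNAs, in part at GGAG motifs. Mature let-7 represses targets that carry a match to its seed in the 3′ UTR, by lowering both their stability and their translation, and in the early neural tube Lin28 is high while progenitors divide and let-7 rises as neurons form.

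Library sums over the shared genes were 9962513 to 10484484 counts in total RNA, 14872331 and 15413032 in WT polysomal RNA and 3740247 and 5164196 in dKO polysomal RNA. Only listed genes enter these sums, so they are no measure of sequencing depth. The neural markers Sox2 (270 to 310 CPM, the count scaled to a common size of the whole total RNA table), Nes (758 to 960 CPM) and Tubb3 (676 to 784 CPM) were present in all total RNA libraries. The dKO polysomal replicates differed more from each other (chi-square per degree of freedom 24.8) than the replicates of the other groups (2.89 to 3.18), and the ribosomal RNA precursor Rn45s took 9.52% and 4.59% of their counts against 0.109% to 0.304% in the other libraries. The polysomal table lists genes picked for a genotype difference. Of 5439 genes averaging 100 polysomal counts or more, none had a polysomal log2 change between -0.09 and 0.24. In total RNA a band of that width around the median held 51.0% of the 5431 genes averaging 100 total RNA counts or more. Interaction calls below are conditional on that choice, and in whole tissue fewer cells of a type and less RNA per cell cannot be told apart.

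Most listed genes departed from their total RNA change, and they did so in both directions. With edgeR's quasi-likelihood test at a Benjamini-Hochberg adjusted p of 0.05, 5171 of 5780 genes (89.5%) were called, 2524 with a positive value (43.7%) and 2647 with a negative value (45.8%). The median absolute interaction value of the called genes was 0.92, and 1099 positive and 1120 negative genes reached at least 1. The interaction lay mainly in the dKO polysomal libraries: the median absolute difference between polysomal and total RNA was 0.82 in dKO and 0.13 in WT, and the median absolute genotype change was 0.89 in polysomal and 0.17 in total RNA. Polysomal RNA differed from total RNA for 5202 genes in dKO (90.0%; 43.1% higher, 46.9% lower) and for 693 in WT (12%; 3.48% higher, 8.51% lower). The polysomal genotype change itself was called for 5779 genes (47.2% higher and 52.7% lower), as the choice of listed genes made it.

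**Figure D1:**
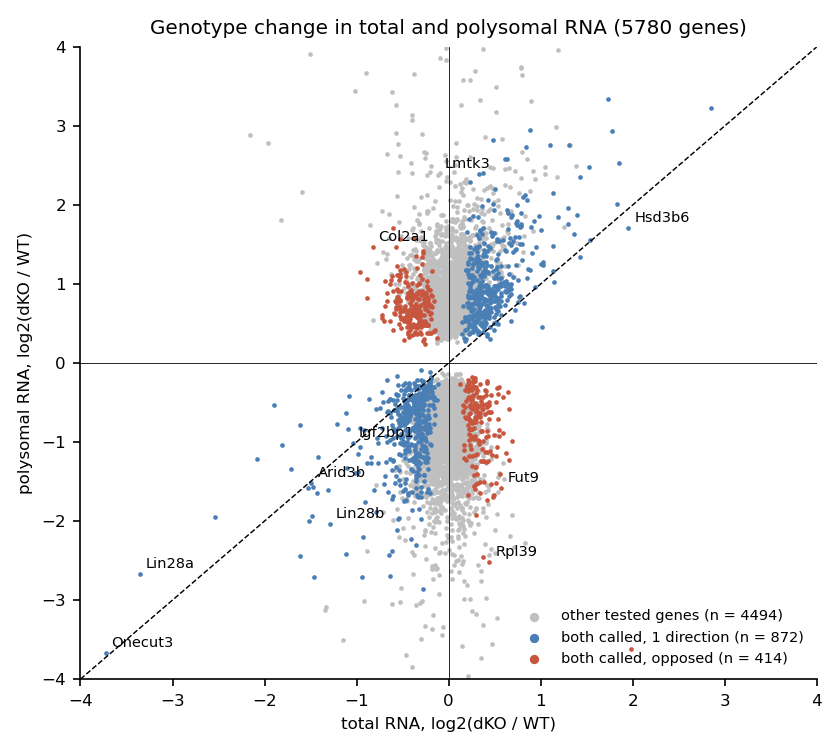
Log2 ratio of dKO to WT in total RNA (horizontal axis) and in polysomal RNA (vertical axis) for 5780 genes, 1 point a gene, with 91 genes outside the axes; the dashed line marks equal change. Red points (414 genes) were called in both fractions in opposed directions, blue points (872 genes) in both in 1 direction, and the empty band along the horizontal line is the gap of the deposited polysomal table.

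The targeted genes themselves fell in both fractions, by unlike amounts. Lin28a (chromosome 4, 134003330 to 134018841, minus strand, GENCODE annotation of GRCm38) had 1151 and 1091 counts in WT total RNA, 103 and 120 in dKO total RNA, 1625 and 1512 in WT polysomal RNA and 53 and 75 in dKO polysomal RNA, whose library sums were the smallest. Its log2 change was -3.36 ± 0.12 (SE) in total and -2.67 ± 0.13 in polysomal RNA, so the interaction was 0.69 ± 0.19 (adjusted p = 0.00647). Lin28b (chromosome 10, 45376620 to 45486395, minus strand) stood at 191 and 183 CPM (here and below scaled on the shared genes, with TMM factors) in WT total, 71.4 and 81.7 in dKO total, 154 and 142 in WT polysomal and 42.2 and 31.3 in dKO polysomal RNA. Its polysomal fall exceeded its fall in total RNA, with an interaction of -0.74 ± 0.17 (adjusted p = 0.00208). Counts per gene do not tell the deleted from the retained exons, so the remaining reads cannot be placed. The Lin28b value did not keep its sign once libraries were adjusted for transcript GC content (0.33, adjusted p = 0.184), an adjustment taken up further on because the interaction followed base composition closely.

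The range of base composition is shown by 2 sequences, picked as its extremes, so that their contrast is no evidence for the relation. Among the 24 named largest rises and falls, Lmtk3, a neuronal membrane kinase (chromosome 7, 45783738 to 45804144, plus strand), had the highest transcript GC content, 66.7%, and Prrg1, a transmembrane Gla protein (chromosome X, 78449613 to 78583896, minus strand), had the lowest, 33.4%. The first 60 coding bases of each (GENCODE M21 transcripts, GRCm38) are shown 5′ to 3′ with the last base of each codon in capitals, to show how they differ there.
Lmtk3: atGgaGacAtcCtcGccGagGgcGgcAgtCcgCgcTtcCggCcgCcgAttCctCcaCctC
Prrg1: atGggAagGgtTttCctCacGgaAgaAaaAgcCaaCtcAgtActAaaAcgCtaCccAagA
In these stretches 16 of 20 last codon positions of Lmtk3 and 9 of 20 of Prrg1 were G or C, and over the whole coding sequences the shares were 75.3% and 40.2%.

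At mean levels of 20 CPM or more, the 12 largest positive values included genes for secreted and matrix proteins, a receptor and proteins of RNA metabolism. Lmtk3 stood at 40.1 and 35.2 CPM in WT total, 36.7 and 33.1 in dKO total, 25.5 and 25.6 in WT polysomal and 140 and 127 in dKO polysomal RNA. The dKO polysomal libraries lay above all others and the WT polysomal libraries below both total RNA groups, and the interaction was 2.50 ± 0.17 (adjusted p = 1.19e-06). The orphan receptor gene Gpr27 stood at 16 and 13.4 CPM in WT total, 20.9 and 20.1 in dKO total, 14.6 and 13.2 in WT polysomal and 103 and 93.8 in dKO polysomal RNA (interaction 2.34 ± 0.21). Ccdc85c, which acts at the apical junctions of neural progenitors, stood at 90.3 and 82.5, 77.5 and 83.4, 79.6 and 82.4 and then 421 and 341 CPM in the same order of groups (2.33 ± 0.15). In all 3 genes dKO polysomal RNA lay above every other library. Positive values of 2.11 to 2.33 were also found for Exosc6, a subunit of the RNA exosome, Spata5l1, an AAA ATPase, the collagen genes Col2a1 and Col1a1, Sst, which encodes the neuropeptide somatostatin, Msx1, a homeobox gene of the dorsal midline, Mocs3, an enzyme of molybdenum cofactor synthesis and tRNA thiolation, and Crocc, a component of the ciliary rootlet. With Lmtk3, Gpr27, Ccdc85c and Lars2 these are the 12 largest rises. All 12 stayed positive when any 1 library was left out, though they had been picked as the largest called values. With the GC adjustment all 12 stayed positive, 11 were called in the interaction and 7 in polysomal RNA.

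Lars2, the mitochondrial leucyl-tRNA synthetase gene, had the largest value of the 12, and it moved together with ribosomal RNA. It stood at 92.0 and 102 CPM in WT total, 71.1 and 69.4 in dKO total, 57.5 and 63.9 in WT polysomal and 5580 and 2690 in dKO polysomal RNA, an interaction of 6.55 ± 0.40 (adjusted p = 7.72e-07). Of the dKO polysomal counts Lars2 took 0.499% and 0.258%, Rn45s 9.52% and 4.59% and Mir6236, a small RNA gene, 0.235% and 0.119%, so that all 3 were higher in dKO polysomal replicate 1 than in replicate 2. The part that ribosomal RNA reads had in the Lars2 value was not tested.

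The 12 largest negative values included genes of membrane anchors, the kinetochore, the ribosome and chromatin. Pigf, an enzyme of GPI anchor synthesis (chromosome 17, 86997256 to 87025406, minus strand), stood at 34.3 and 37.2 CPM in WT total, 41.3 and 36.6 in dKO total, 29.3 and 29.7 in WT polysomal and 1.20 and 2.02 in dKO polysomal RNA, an interaction of -4.25 ± 0.30 (adjusted p = 1.71e-06). Its total RNA did not pass the test (0.12, adjusted p = 0.551), and both dKO polysomal libraries lay far below all others. The kinetochore gene Cenph stood at 28.7 and 28.2, 21.4 and 22, 39.9 and 41.5 and then 4.78 and 1.41 CPM in the same order, with -3.46 ± 0.37. Rpl39, a protein of the large ribosomal subunit, rose in total RNA from 256 and 253 to 346 and 344 CPM and fell in polysomal RNA from 272 and 282 to 40.4 and 54.4 CPM (interaction -2.96 ± 0.13, adjusted p = 2.86e-07). Tmem258, a subunit of the oligosaccharyltransferase complex, likewise rose in total RNA (0.38, adjusted p = 0.0201) and fell in polysomal RNA, with an interaction of -2.84 ± 0.16. H2afz, the histone variant H2A.Z, fell from 121 and 115 CPM to 20.9 and 15.4 in polysomal RNA while total RNA stood at 91.8 and 87.5 in WT and 94.1 and 90.4 in dKO. The noncoding transcript Gt(ROSA)26Sor, Prrg1 (-3.11), Lypla1, a protein depalmitoylase (-2.82), the G1/S cyclin gene Ccne2 (-2.69), Hnrnpa3, an RNA-binding protein (-2.67), Scoc (-2.66) and Mob4, a striatin complex protein (-2.62), completed the 12. All 12 stayed negative without any 1 library, though they had been picked as the largest called values. With the GC adjustment 11 of 12 were called. With 1 library left out the Ccne2 value ranged from -5.11 to -2.02, its dKO polysomal libraries standing at 0.897 and 7.68 CPM. Rpl39, Hnrnpa3 and H2afz have processed pseudogenes, so their counts are uncertain.

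**Figure D2:**
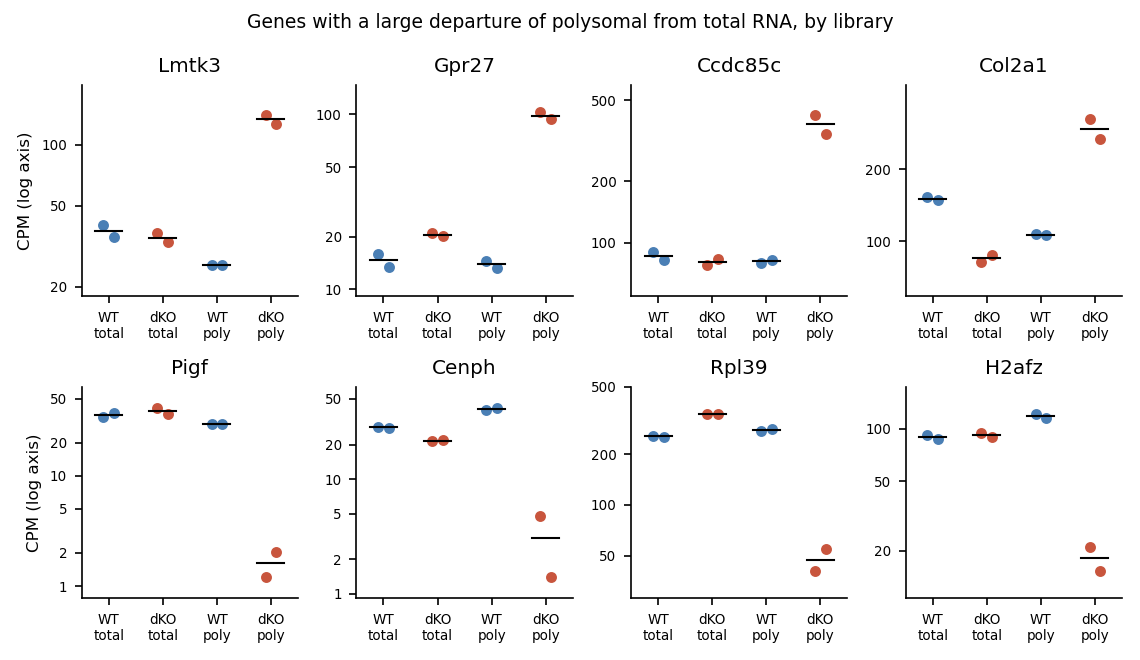
CPM of 8 genes by group (log axis), with 1 point a library and a bar at the group mean, WT in blue and dKO in red. In the upper row the dKO polysomal libraries lie above all other libraries, for Lmtk3 at 140 and 127 CPM, and in the lower row below all others, for Pigf at 1.20 and 2.02 CPM.

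In a smaller set of genes the fractions moved in opposed directions. Of 1286 genes called in total RNA (22.2% of those tested), 872 were called in the same direction in polysomal RNA and 414 in the opposite one. Total RNA was higher and polysomal RNA lower in dKO for 183 genes (3.17%), and total RNA was lower and polysomal RNA higher for 231 (4.0%). Both were higher for 407 genes (7.04%) and both lower for 465 (8.04%). The median transcript GC content was 42.2% in the first set, 56.6% in the second, and 49.8% over all tested genes.

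The 8 genes named as up in total and down in polysomal RNA were of mixed function. Fut9, which makes the Lewis x sugar of neural progenitors (chromosome 4, 25609332 to 25800244, minus strand), rose in total RNA from 156 and 151 to 223 and 232 CPM and fell in polysomal RNA from 197 and 192 to 48.4 and 78.4 CPM. The genotypes did not overlap in either fraction, the log2 changes were 0.57 (adjusted p = 0.00959) and -1.58, and the interaction was -2.15 ± 0.19. Dynlt3, a dynein light chain, rose from 44.0 and 49.4 to 69.1 and 68.7 CPM in total RNA and fell from 50.6 and 51.8 to 21.2 and 18 CPM in polysomal RNA (-1.96 ± 0.17). Lin7a, a scaffold of synaptic and epithelial junctions (-1.77 ± 0.16), and Cacna2d1, an auxiliary subunit of calcium channels (-1.48 ± 0.14), behaved alike, with total RNA changes of 0.63 and 0.55. Nxt2, an mRNA export factor (-1.67), the glycosyltransferase gene B3galt1 (-1.48), the noncoding transcript Cep83os (-1.40) and Rabgap1l, a regulator of Rab GTPases (-1.24), were the other 4 named in that direction.

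The 8 genes named as down in total and up in polysomal RNA included a cytosolic and a mitochondrial tRNA synthetase gene. Yars, the tyrosyl-tRNA synthetase, fell in total RNA from 81.4 and 77.2 to 47.4 and 51.1 CPM and rose in polysomal RNA from 83.5 and 87.2 to 150 and 132 CPM, an interaction of 1.41 ± 0.13 (adjusted p = 7.07e-06). Aars2, the mitochondrial alanyl-tRNA synthetase, fell from 25.5 and 31.9 to 15.2 and 15.8 CPM and rose from 23.0 and 25 to 44.3 and 41.0 CPM (1.71 ± 0.22). Col2a1, the cartilage collagen gene (chromosome 15, 97975602 to 98004695, minus strand), fell in total RNA from 153 and 148 to 82.4 and 87.4 CPM and rose in polysomal RNA from 107 and 106 to 323 and 266 CPM (2.29 ± 0.13). For all 3 genes the dKO libraries lay below WT in total RNA and above WT in polysomal RNA. Crocc (total RNA -0.96, polysomal RNA 1.15), Ccdc9 (-0.89 and 1.06), Gm4737 (-0.69 and 1.04), Hspbp1, a regulator of Hsp70 (-0.67 and 0.78), and Rn45s (-0.95 and 6.15) were the others named. After the GC adjustment, 2 of the 8 genes in each direction remained called in both fractions with opposed signs. The numbers of opposed genes, 183 and 231, depended on the set of libraries. They fell without any 1 total RNA or WT polysomal library and rose without either dKO polysomal library. Leaving out either library of a group gave similar counts. All groups share the fitted spread of each gene, so these counts cannot show whether a single library set the numbers. Calls in total RNA moved likewise, although leaving out a polysomal library changes no total RNA count.

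At the other end, some genes with clear total RNA changes showed no detectable departure. Of 609 genes not called in the interaction (10.5%), 343 were called in total RNA, against 22.2% of all tested genes. The polysomal table lists genes with a polysomal genotype change. A listed gene whose fractions changed alike therefore tends to have a total RNA change too, so that number follows in part from the choice of genes. Of the genes averaging 20 CPM or more with a called total RNA change of at least 0.5, 49 of 133 that rose and 57 of 159 that fell were not called in the interaction. A p above the threshold does not show equal change, so the 95% interval of each interaction value is given.

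Among the falls were let-7 targets and transcription factors of neuronal identity. Igf2bp1, an RNA-binding protein of embryonic growth (chromosome 11, 95957163 to 96005940, minus strand), stood at 683 and 665 CPM in WT total, 329 and 328 in dKO total, 549 and 560 in WT polysomal and 259 and 287 in dKO polysomal RNA. The changes were -1.04 ± 0.05 and -1.02 ± 0.06 and the interaction 0.02 (interval -0.15 to 0.19). Arid3b, a DNA-binding protein, fell from 75 and 80.3 to 29.5 and 25.7 CPM in total RNA and from 80.3 and 75.6 to 26 and 28.1 CPM in polysomal RNA, an interaction of -0.03 (-0.40 to 0.35). In both genes the fall had nearly the same size in the 2 fractions. Onecut3, a homeobox factor of neurons, fell from 43.3 and 33.7 to 3.69 and 2.10 CPM in total RNA and from 40.6 and 43.7 to 5.68 and 1.62 CPM in polysomal RNA, with an interaction of 0.06 whose interval ran from -1.20 to 1.31. Onecut1 (0.27, -0.18 to 0.72), the neurofilament gene Nefm (-0.30, -0.62 to 0.01), the membrane protein gene Lrtm1 (-0.22, -0.73 to 0.28), Gm16551 (-0.06, -0.50 to 0.39) and Alas2, which starts haem synthesis in erythroid cells (0.43, -0.01 to 0.88), were the other 5 of the 8 largest.

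Among the rises were Hox and signalling genes. Hsd3b6, a steroid dehydrogenase, stood at 14.7 and 16.6 CPM in WT total, 63.8 and 57.2 in dKO total, 5.36 and 6.01 in WT polysomal and 16.4 and 20.4 in dKO polysomal RNA, so that polysomal lay below total RNA in both genotypes (interaction -0.24, interval -0.79 to 0.32). Camk2n1, an inhibitor of the kinase CaMKII, rose from 78.6 and 79.8 to 175 and 176 CPM in total RNA and from 49.8 and 48.3 to 94.8 and 103 CPM in polysomal RNA (-0.12, -0.38 to 0.13). Hoxb8, which patterns the spinal cord, rose from 22.4 and 19.3 to 47.9 and 43.9 CPM and from 17.9 and 16.6 to 37.7 and 39.4 CPM (0.03, -0.41 to 0.47). Fgf15, a growth factor of the neural tube (0.02, -0.30 to 0.35), Hoxa5 (0.26, -0.13 to 0.64), Cbln2, a synapse organiser (0.22, -0.44 to 0.88), Sybu, a linker of kinesin cargo (0.48, -0.20 to 1.16), and P4ha3, a collagen prolyl hydroxylase (0.52, -0.12 to 1.16), followed. With the GC adjustment 2 of the 8 falls, Nefm (-0.94) and Arid3b (-0.81), and 2 of the 8 rises, Camk2n1 (-0.80) and Hoxb8 (-0.68), were called with a negative interaction.

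**Figure D3:**
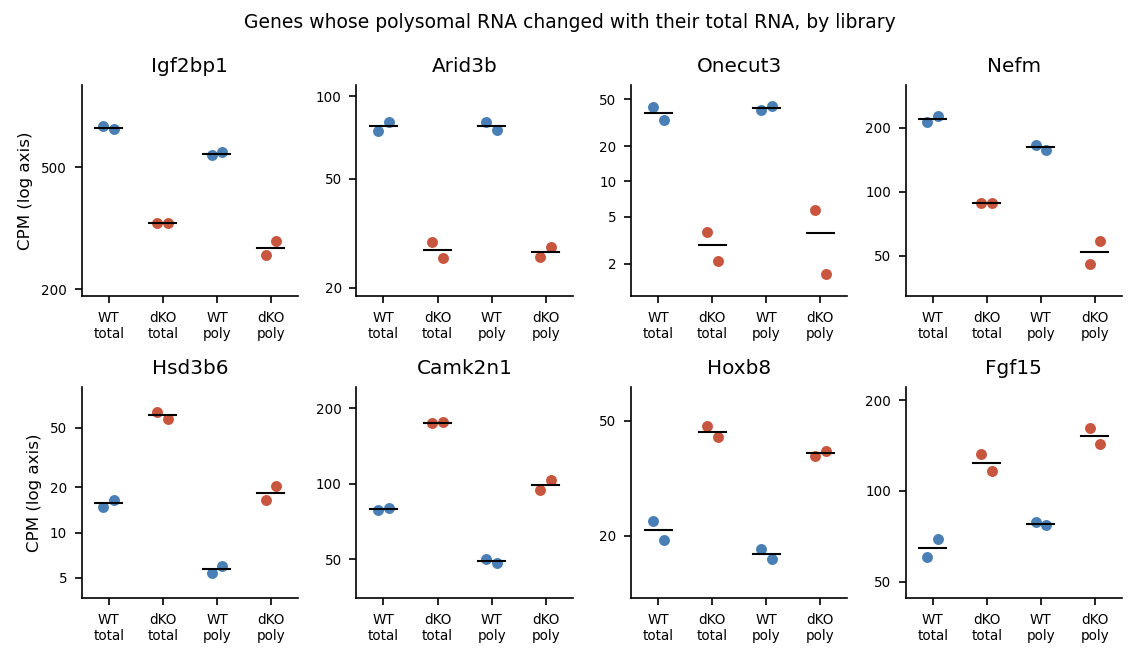
CPM of 8 genes by group (log axis), with 1 point a library and a bar at the group mean, WT in blue and dKO in red. The step from WT to dKO is similar in total and polysomal RNA, for Igf2bp1 from 683 and 665 to 329 and 328 CPM in total and from 549 and 560 to 259 and 287 CPM in polysomal RNA.

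The let-7 targets as a list were lower in total RNA but had no shared departure on polysomes. All 8 mature let-7 5p forms examined (RefSeq, GRCm38.p6) have the same seed, bases 2 to 8, in capitals in the 2 shown here.
let-7a-5p: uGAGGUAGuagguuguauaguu
let-7i-5p: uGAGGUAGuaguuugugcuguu
Sites for that seed read CTACCTC in the 3′ UTR, in capitals below, and the windows are from genes whose values follow (GENCODE M21 transcripts, sense strand).
Hmga2: ggcgccgacattcaatttCTACCTCagca
Igf2bp1: agtgctgtgcgaagtaaaCTACCTCaagg
Arid3b: ttatatttcaataaagctCTACCTCttca
Lin28b: ttcacccgggcgggaagtCTACCTCatgc
Such a match occurred 4 times in the 3′ UTR of Hmga2, 4 times in Igf2bp1, 4 times in Lin28b and 1 time in Arid3b. A match is a description of the sequence and not a tested site.

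Of 56 let-7 targets listed, 40 were tested, and 24 of these fell and none rose in total RNA (median -0.32, against -0.00 for all tested genes, of which 12% fell and 10.2% rose). In the interaction 14 were positive, 16 negative and 10 not called, with a median of -0.06 against -0.13 for all tested genes. Hmga2, a chromatin protein of embryonic progenitors, fell in total RNA from 425 and 445 to 139 and 144 CPM and in polysomal RNA from 458 and 462 to 81.6 and 86.7 CPM. Its interaction of -0.83 ± 0.09 (adjusted p = 1.35e-05) thus marks a further fall on polysomes. Onecut2, a homeobox factor, showed the same pattern, from 730 and 746 to 335 and 348 CPM and from 929 and 948 to 185 and 167 CPM (-1.31 ± 0.08). Igdcc3, an immunoglobulin superfamily receptor, went the other way: it fell from 488 and 501 to 113 and 120 CPM in total RNA and less, from 573 and 549 to 265 and 222 CPM, in polysomal RNA (0.87 ± 0.11). Fignl2, a fidgetin-like ATPase, was similar (total RNA -1.90, polysomal RNA -0.54, interaction 1.37 ± 0.21). Hmga1 (1.41) and Col3a1 (1.75) had the most positive values of the list. Hmga2, Onecut2, Igdcc3 and Fignl2 had transcript GC contents of 45.7%, 42.6%, 60.1% and 63.9%. Their GC-adjusted interactions were -0.28, -0.44, -0.34 and -0.04. The targeted genes Lin28a and Lin28b are themselves in this list.

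Over all genes with an annotated 3′ UTR, those with no CTACCTC match (5011 genes, 90.0%) had a median interaction of -0.14, those with 1 match (474 genes, 8.51%) of -0.23 and those with 2 or more (83 genes, 1.49%) of -0.34. These medians were -0.07, -0.04 and 0.03 with the GC adjustment, so the order of the groups turned. The median transcript GC content of the 3 groups was 50%, 48.2% and 46.9%, and the median 3′ UTR length was 1060, 2260 and 4030 bases. The let-7 processing enzyme gene Dicer1, itself listed as a target, changed by -0.67 in total and -0.62 in polysomal RNA and was not called in the interaction (0.05).

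Lists of the protein synthesis machinery held members of both signs, as did the tested genes as a whole, of which 43.7% were positive and 45.8% negative with a median of -0.13 (-0.06 with the GC adjustment). Every interaction count of a list below stands against those shares. For total RNA, list counts here and below stand against the 10.2% of all tested genes that rose and the 12% that fell. Counts with the GC adjustment stand against 942 positive and 1422 negative of all 5780 tested genes. Only part of each list was tested: 16 of 35 small subunit, 18 of 49 large subunit, 31 of 80 ribosome biogenesis and 13 of 37 tRNA synthetase genes. The shares describe these tested members and not the whole gene classes. Of 16 tested genes of the small ribosomal subunit, 10 were positive and 5 negative (62.5% and 31.2%, median 0.48), and of 18 of the large subunit 10 were positive and 8 negative (55.6% and 44.4%, median 0.42). In total RNA 8 and 4 of them rose and none fell. Rpl6 stood at 265 and 262 CPM in WT total, 242 and 247 in dKO total, 185 and 184 in WT polysomal and 590 and 605 in dKO polysomal RNA, an interaction of 1.80 ± 0.07 (adjusted p = 2.07e-07). Rps6 moved the opposite way, from 21.4 and 19.6 to 5.38 and 4.04 CPM in polysomal RNA, while total RNA stood at 20.7 and 19.9 CPM in WT and 23.0 and 26.2 in dKO (-2.42 ± 0.28). Genes for proteins of the same ribosome thus departed in opposite directions, and the Rpl6 and Rps6 values kept their sign with the GC adjustment (1.60 and -2.50). Rps19 (1.45), Rps14 (1.08) and Rpl36 (1.89) were positive and Rpl36al (-1.82) negative. The list medians were -0.03 and -0.22 with the GC adjustment, and processed pseudogenes make all these counts uncertain.

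Of 31 initiation and elongation factors 11 were positive and 17 negative (median -0.41). Eif4e, the cap-binding protein, stood at 248 and 258 CPM in WT total, 244 and 236 in dKO total, 239 and 236 in WT polysomal and 62.2 and 83.5 in dKO polysomal RNA (-1.60 ± 0.14). Eif6, which keeps ribosomal subunits apart, fell in total RNA (-0.45, adjusted p = 0.00343) and rose in polysomal RNA (0.83), with an interaction of 1.28 ± 0.11. Among 31 genes of ribosome biogenesis total RNA fell for 15 and rose for none, while in the interaction 8 were positive and 16 negative (median -0.48, and 0.05 with the GC adjustment). Nop10, a subunit of box H/ACA particles, stood at 101 and 108, 101 and 102 and 118 and 125 CPM in the first 3 groups and at 23.0 and 22.8 CPM in dKO polysomal RNA (-2.36 ± 0.13), whereas Rrs1 (1.27) and Rrp15 (1.29) were positive. Of 13 tRNA synthetase genes 6 were positive and 4 negative (46.2% and 30.8%, median -0.13), with Sars2 at 1.78 and Rars2 at -1.72, and 1 and 3 with the GC adjustment (median 0.11). Of 28 genes of the IGF and mTOR pathway 15 were positive and 11 negative (53.6% and 39.3%, median 0.25), and 5 and 9 with the GC adjustment (median -0.01). Igfbp2, a secreted IGF-binding protein, stood at 346 and 350, 289 and 283, 386 and 377 and then 971 and 855 CPM (1.54 ± 0.09), and Igf1 at -1.22 and the S6 kinase gene Rps6kb1 at -1.07 were lower. The Rps6kb1 value was 0.16 with the GC adjustment.

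Cell cycle lists were mostly negative. Of 44 genes of mitosis, spindle and centromere 34 were negative and 1 positive, with a median of -0.67 against -0.13 for all tested genes, and in total RNA 10 fell and none rose. Ccnb1, the mitotic cyclin, stood at 95.4 and 102 CPM in WT total, 101 and 101 in dKO total, 93.9 and 91.2 in WT polysomal and 14.1 and 19.6 in dKO polysomal RNA (-2.46 ± 0.17, adjusted p = 1.35e-06). Total RNA did not separate the genotypes, and both dKO polysomal libraries lay below the rest. Cenpk (-2.72), a kinetochore protein, followed Cenph, while Cdca8, of the chromosomal passenger complex, was not called (-0.02) and the phosphatase gene Cdc25b was the positive member (0.39, and -0.35 with the GC adjustment). Of 28 genes of DNA replication and G1/S 18 were negative and 4 positive (median -0.65), from Ccne2 (-2.69) and Pole2, a subunit of DNA polymerase epsilon (-1.91), to the transcription factor gene E2f1 and the chromatin assembly gene Chaf1a (both 1.08). The median transcript GC content of these lists was 43.4% and 45.7%, and their medians were -0.03 and -0.18 with the GC adjustment.

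Of 41 neural progenitor genes 26 were positive and 11 negative (63.4% and 26.8%, median 0.53), and 11 and 16 with the GC adjustment (median -0.09). Nes, the intermediate filament of progenitors, fell in total RNA from 1430 and 1390 to 1130 and 1140 CPM and rose in polysomal RNA from 1270 and 1240 to 2790 and 2630 CPM (1.42 ± 0.06). Notch1 stood at 544 and 563, 566 and 574, 465 and 477 and then 1010 and 979 CPM (1.04 ± 0.06), and the Notch ligand gene Dll3 had an interaction of 1.72. Id2, an inhibitor of differentiation, fell from 277 and 276 to 87.3 and 87.3 CPM in polysomal RNA while it rose in total RNA (0.22, adjusted p = 0.0202), an interaction of -1.88 ± 0.09 that was -2.33 with the GC adjustment. Sox2 was not called (-0.14). Of 40 neuronal genes 17 were positive and 13 negative (42.5% and 32.5%), and 5 and 16 with the GC adjustment, from Lhx3, a motor neuron factor (1.54), and Stmn3, a microtubule regulator (1.41), to Neurod4, a proneural factor (-1.82), and Elavl2, a neuronal RNA-binding protein (-1.56). The median of that list was 0.18 and its sign turned with the GC adjustment (-0.23).

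Of 35 axon guidance genes 28 were positive and 7 negative (median 0.87), and of 26 collagen and matrix genes 23 were positive and 2 negative (median 1.05). Col1a1 stood at 106 and 77.0 CPM in WT total, 99.9 and 85.6 in dKO total, 69.4 and 69.6 in WT polysomal and 371 and 309 in dKO polysomal RNA (2.27 ± 0.20). Vcan, a proteoglycan (-0.76), and Nid1, a basement membrane linker (-0.47), were the negative members, and the semaphorin genes Sema3d (-2.0) and Sema3a (-1.86) were the most negative of the guidance list, while Sema7a (1.41) and Sema3g (1.81) were the most positive. Mesenchyme and somite markers, which other tissue in the dissection could bring, summed to 957 to 1000 CPM in WT total and 887 to 908 in dKO total RNA, and to 861 to 871 in WT and 1560 to 1780 in dKO polysomal RNA. The 4 genes Col1a1, Col1a2, Col2a1 and Col3a1 are in both lists, so the sums rise in part by construction. Of the other 6 tested markers, Lum, Pax3, Prrx1 and Sox6 were negative and Tcf15 and Twist1 positive. The part of mesenchyme in the collagen values was not tested. The median GC content of the guidance and matrix lists was 57.3% and 56.7%, and their medians were -0.02 and -0.00 with the GC adjustment.

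Among 18 tested Hox genes 10 were positive and 2 negative (median 1.63), but 10 of the 18 had a mean under 5 CPM. In the 8 with more counts 3 were positive and 2 negative (median 0.37), from Hoxc4 (-1.02 ± 0.24) to Hoxb7 (1.66 ± 0.48). Of 158 zinc finger genes named Zfp 104 were negative and 46 positive (median -0.87, GC content 42.2%, and -0.08 with the GC adjustment). Of 20 genes of microRNA silencing 16 were negative and 1 positive (median -0.56, and -0.04 with the GC adjustment), from Cnot7, a deadenylase subunit (-1.20), to Khsrp, a KH-type splicing regulator (0.90). Of 31 spliceosome genes 22 were negative and 6 positive (median -0.56, and 0.04 with the GC adjustment), with Snrpg at -2.15 and Lsm4 at 1.53. Primitive erythroid markers gave 6 negative and 3 positive values of 10, and their summed level was 7090 to 7200 CPM in WT and 4410 to 4420 in dKO total RNA and 9270 to 9440 and 5340 to 5460 in polysomal RNA, with Hba-a1, Hba-a2, Hbb-bs, Hbb-bt, Hbb-b1 and Hbb-b2 at 0 in all total RNA libraries. Sptb, an erythroid spectrin, was at 1.49 and the transferrin receptor gene Tfrc at -1.02, and Tfrc was at 0.13 with the GC adjustment.

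**Figure D4:**
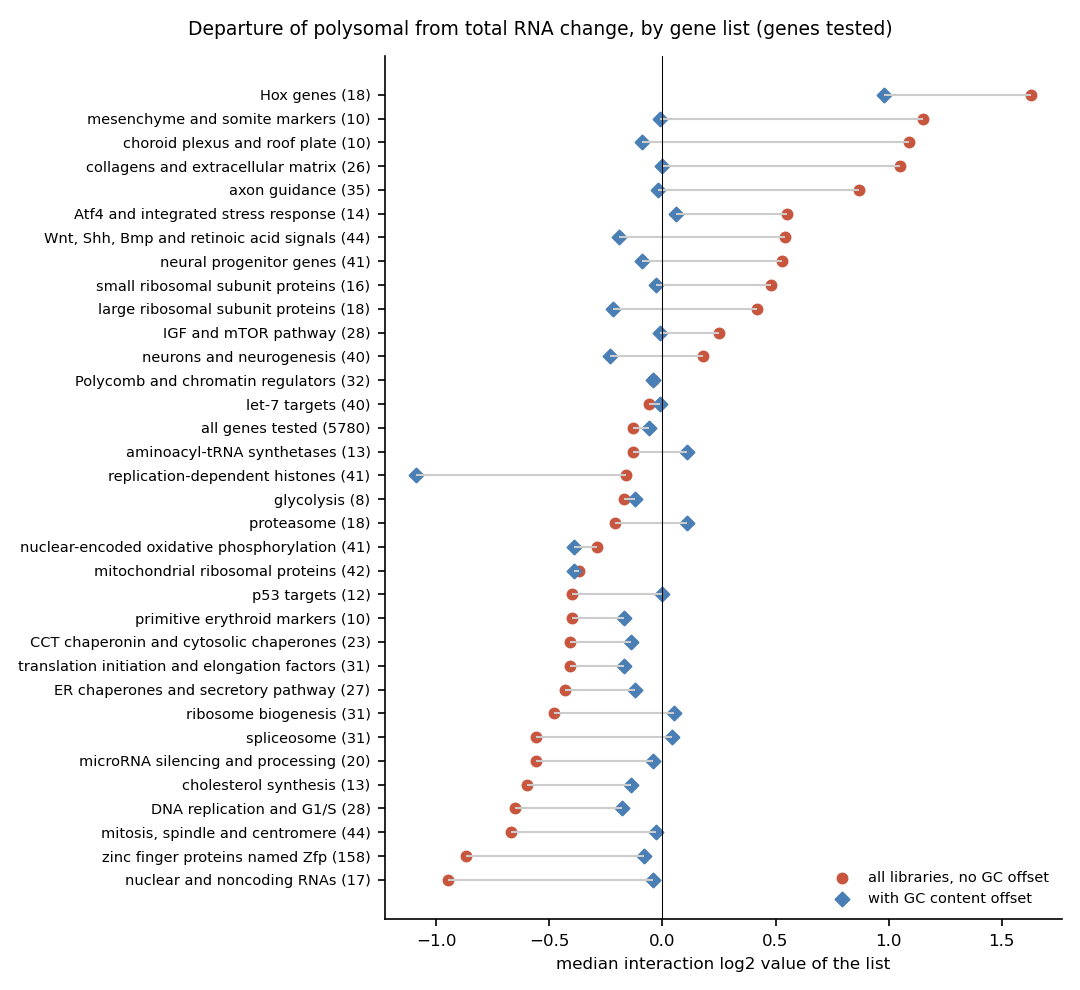
Median interaction value (log2, horizontal axis) of the gene lists with at least 8 tested genes and of all tested genes, without (red circles) and with (blue diamonds) the GC content offset; the number of tested genes stands in brackets. Without the offset medians run from -0.95 for nuclear and noncoding RNAs to 1.63 for Hox genes, and with it most lie near 0, with replication-dependent histones at -1.09 and Hox genes at 0.98 the farthest.

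Of the 11 transcript features compared with the interaction, GC content had the closest relation to it, and its median was 56.5% in the positive and 43.8% in the negative genes. Across 5746 genes with an annotated transcript the interaction followed transcript GC content (Spearman correlation 0.795), while the total RNA change did not (0.0224), the value for the WT difference between polysomal and total RNA was -0.225, and the dKO difference followed it as the interaction did (0.778). Genes are not independent replicates, and all share the same 8 libraries, so these values describe the tables. In the decile of genes with the lowest GC content, 31.0% to 40.8%, 96.9% were called negative (median -1.26), and in the highest decile, 59.7% to 78.9%, 93.2% were called positive (median 1.18). The turn lay between the fifth decile, with 20% positive and 55.4% negative, and the sixth, with 53% and 28.2%. The coefficient was 0.763 for coding sequence GC content, 0.694 for last codon positions, 0.677 for the 3′ UTR and 0.232 for the 5′ UTR. It was 0.594 for the density of GGAG, a core of the Lin28 binding motif (sense strand), and 0.0316 after the GC adjustment. Transcript length (-0.0834) and mean level (-0.0547) showed little relation.

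**Figure D5:**
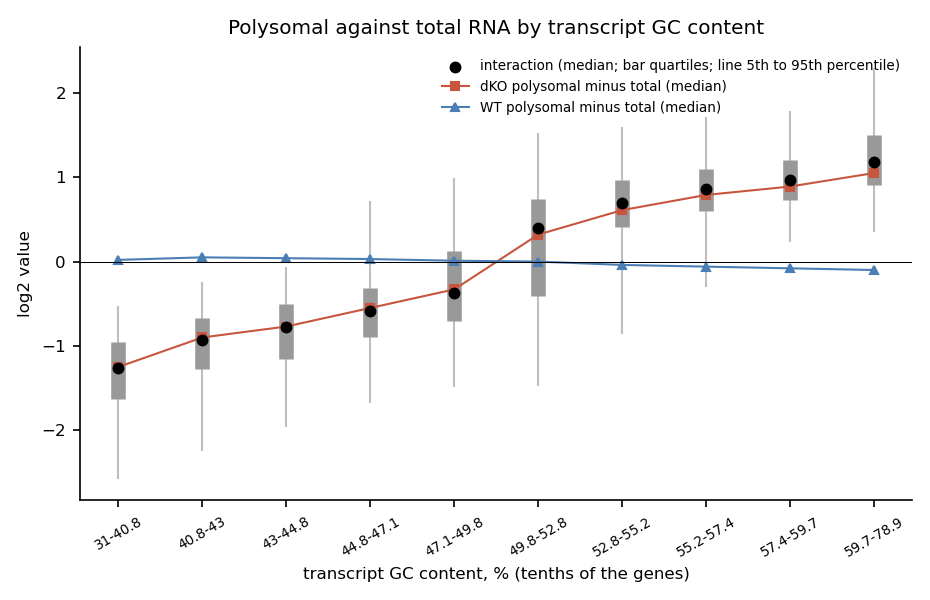
Log2 values by deciles of the genes ordered by transcript GC content (horizontal axis, %): median interaction (black points, with bars for the quartiles and lines from the 5th to the 95th percentile), and median difference of polysomal from total RNA in dKO (red squares) and WT (blue triangles). The interaction runs from -1.26 to 1.18 with the dKO difference, while the WT medians lie between 0.05 and -0.10.

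With each library's trend over GC content removed, 2364 genes were called, 942 positive and 1422 negative, and 1455 genes (28.1% of the 5171) were called in the same direction both ways, 535 positive and 920 negative. Another 641 genes were called both ways with opposite signs. The genes named next are, of those 1455, the ones with the largest adjusted values and a mean of at least 20 CPM, a choice made after the values were seen. Negative ones were short: the median transcript length was 2390 bases in the 920 negative genes, 3040 in the 535 positive ones and 3250 over all tested genes.

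Besides Pigf, Tmem258, Rpl39 and Cenph, the most negative adjusted values belonged to replication-dependent histone genes. Hist1h2ah stood at 56.9 and 59.6 CPM in WT total, 66.7 and 62.8 in dKO total, 66.8 and 73.6 in WT polysomal and 14.1 and 17.2 in dKO polysomal RNA (interaction -2.30 ± 0.18, adjusted for GC content -3.73). Hist1h2bl stood at 334 and 369, 300 and 304, 408 and 390 and then 134 and 131 CPM (-1.38 ± 0.09, and -2.75). Hist1h2ag (-1.61, and -3.01) and Hist2h3b (-1.26, and -2.70) followed. These 4 lay far below the other groups in dKO polysomal RNA in spite of GC contents of 63.3% to 67.9%, at which most genes were positive. Other histone genes were positive: Hist1h1d, a linker histone, stood at 1010 and 981, 741 and 749, 1360 and 1360 and then 2330 and 2260 CPM (1.18 ± 0.05, and 2.35), and Hist1h1a was at 1.62. Over the 41 histone genes tested, 17 were positive and 20 negative (median -0.16), and with the GC adjustment 12 were positive and 26 negative (median -1.09). Histone genes are near-identical copies, so reads may be split between them. GC content was read from a single transcript of each gene. That of Hist1h1d was 7425 bases long, against a median of 614 bases in the histone list, so its adjusted value is uncertain.

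The most positive adjusted values, besides Lars2, belonged to transcripts with a GC content below the median of 49.8%. The adjustment raised the values of such transcripts, so this follows in part from the choice by adjusted value. Shfm1, a proteasome lid and DNA repair protein, stood at 118 and 124 CPM in WT total, 111 and 99.2 in dKO total, 151 and 135 in WT polysomal and 374 and 386 in dKO polysomal RNA (interaction 1.62 ± 0.11, adjusted for GC content 3.09), at a GC content of 37.3%. Gng5, a G protein gamma subunit, stood at 34.3 and 30.5, 23.9 and 25, 23.1 and 23.2 and then 49.0 and 43.7 CPM (1.40, and 2.61), at 39.4%. In the decile of genes with that GC content 1.39% were positive. The ubiquitin ligase gene Rnf217 (1.15, and 2.47), Pura, a nucleic acid-binding protein (1.55, and 2.36), Hist1h2bh (1.37, and 2.13) and Cox17, a copper chaperone of mitochondria (1.45, and 1.96), completed the 8. Each of these 16 genes kept its sign without any 1 library, but they had been picked for large values called both ways.

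The lists of nuclear-encoded mitochondrial genes had shares near those of all tested genes without the GC adjustment. With it, 942 of all 5780 tested genes were positive and 1422 negative, a smaller negative share than in either list. The medians of both lists, like the all-gene medians of -0.13 and -0.06, were negative without and with the GC adjustment. Of 41 oxidative phosphorylation genes 18 were positive and 21 negative (43.9% and 51.2%, median -0.29), and 6 and 21 with the GC adjustment (-0.39). Of 42 mitochondrial ribosomal protein genes the counts were 16 and 21 (38.1% and 50%, median -0.37), and 9 and 18 with the adjustment (-0.39). Ndufb4, a subunit of complex I, stood at 10.3 and 11.4 CPM in WT total, 13.6 and 14.5 in dKO total, 18.8 and 15.4 in WT polysomal and 2.69 and 1.01 in dKO polysomal RNA (-3.70 ± 0.44). Mrpl42 stood at 80.6 and 81.5, 85.9 and 78.8, 68.1 and 68.9 and then 17.9 and 15.8 CPM (-2.06 ± 0.16). Both lists also held clearly positive members, such as Cox6a1 of complex IV (1.74 ± 0.14), Atp5e of the ATP synthase (1.58 ± 0.08) and Mrpl52 (1.54 ± 0.11).

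For 42 genes no read was counted in either dKO polysomal library, against 7 genes with none in either WT polysomal library. The library sums over the shared genes were 3740247 and 5164196 counts in dKO and 14872331 and 15413032 in WT polysomal RNA. Genes without reads are more frequent at smaller sums, so the 2 numbers of genes cannot be compared directly. Of the 42, none rose and 4 fell in total RNA, where 12% of all tested genes fell, and their median GC content was 43.2% against 49.8% for all tested genes. Examples, chosen after their values were seen, are Rpl10, with 48 and 66 counts in WT total and 64 and 71 in dKO total RNA, and Sarnp, an mRNA export protein, with 63 and 57 against 52 and 75. Their fitted values depend on the prior count and are not given. Processed pseudogenes make the Rpl10 counts uncertain, as for other ribosomal protein genes, so the lack of counted reads does not show that its RNA was absent.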

How the data were processed

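The sources used here do not give how polysomes were collected, nor the annotation, strand setting or multi-mapping rule of the counting. Per the submitters' processing notes FastQC, TopHat and HTSeq were used, with mm9, mm10 and GRCm38 as builds whose roles are not stated, and per the labels' protocols libraries were strand-specific. The 2 tables the authors deposited hold raw counts, whole numbers by gene symbol. Tables were joined by symbol; 12 shared symbols had been turned into dates, and 4 ambiguous total RNA rows and 2 polysomal rows were left out. Symbols were matched to GENCODE M21 on GRCm38 by name (96.5%) or synonym (2.93%), and coordinates only place genes. For each symbol the transcript with the longest coding sequence was used, with protein-coding transcripts that have both UTRs taken first.

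All 8 libraries were fitted in R 4.3.3 using edgeR 4.0.16 with filterByExpr, TMM, 4 group means and the quasi-likelihood F test, Benjamini-Hochberg adjusted over 5780 genes. The SE is the absolute log2 value divided by the square root of F. The fit was tested on simulated counts with the same spread in all groups. In the data the dKO polysomal replicates differed more than the others, so that test does not cover them. The biological coefficient of variation was 0.0637. The GC adjustment is an offset from a loess curve (span 0.5) over transcript GC content. The curve was fitted to each library's deviation from the mean of the WT libraries of its fraction. Alternatives were RLE, upper-quartile and 2 other scalings, DESeq2 1.42.0, limma-voom (limma 3.58.1), low-count filters, replicate blocks, GC and length offsets, a log2 value of at least 1 and each library left out.

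Named genes are Lin28a and Lin28b; the 12 largest called rises and falls at a mean of at least 20 CPM with ratios that do not overlap (predicted genes, pseudogenes and Mir, Snor, Rn and Mt names, 6 rises and 1 fall, were left out); 8 opposed and 8 concordant genes each way; and the 2 highest and 2 lowest members of each of 36 lists at 5 CPM. Not all of these are printed, and other members printed were picked after their values were seen. Members and lists were chosen with earlier results of these data known.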

Additional observations from a re-analysis of the deposited data

Results flagged for a closer look

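Of 414 genes called in both fractions with opposed signs, the 16 named by rule, 8 each way, are given a second look here. The test of the difference between the fractions called them too, but opposed changes add up in that difference. It also called 89.5% of all tested genes, so that call is no further evidence. Fut9 (interaction -2.15), Dynlt3 (-1.96), Lin7a (-1.77), Nxt2 (-1.67), B3galt1 (-1.48), Cacna2d1 (-1.48), Cep83os (-1.40) and Rabgap1l (-1.24) were higher in dKO total RNA and lower in dKO polysomal RNA. Rn45s (7.10), Col2a1 (2.29), Crocc (2.11), Ccdc9 (1.95), Gm4737 (1.73), Aars2 (1.71), Hspbp1 (1.45) and Yars (1.41) were lower in total and higher in polysomal RNA. The polysomal table holds genes chosen by their genotype difference, so the polysomal side of each pair is no independent evidence.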

How the results depend on the processing

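The interaction counts (5171 genes, 2524 positive and 2647 negative) changed by over 1.5 times in 2 settings. With the GC content offset 2364 genes were called (942 and 1422; 39.8% of calls positive against 48.8%), 3311 in polysomal RNA instead of 5779, and 85 instead of 231 with total RNA lower and polysomal RNA higher. With an absolute log2 value of at least 1 they were 2219 (1099 and 1120). With limma-voom, genes with total RNA higher and polysomal RNA lower numbered 323 instead of 183. The replicate numbers carry no stated pairing. Deviations of same-numbered libraries correlated at -0.0221 to 0.0311 over 5127 genes. Values near 0 cannot exclude a shared embryo or preparation, so whether the libraries were paired is not known. The replicate block called 5128 genes in the interaction; a replicate block within genotype called 5095, but 475 instead of 1286 in total RNA and 38 and 65 opposed genes. RLE scaling and DESeq2 moved the median of all interaction values from -0.13 to -0.00, a shift above 0.1, and the let-7 and Polycomb list medians changed sign under both.

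Leaving out 1 library gave 4818 to 5310 interaction calls (2376 to 2572 positive, 2433 to 2738 negative), 5737 to 5790 in polysomal RNA, 386 to 2618 in total RNA, 31 to 532 genes with total RNA higher and polysomal RNA lower, and 61 to 485 the other way. For calls in total RNA and for opposed genes, the lowest counts came without a total RNA library and the highest without a dKO polysomal one.

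Among the genes named by rule, called values changed sign only with the GC content offset, which also made the uncalled Hoxb8 interaction a negative call; other uncalled values near 0 changed sign under several settings. The interaction became -0.05 for Bax, -0.35 for Cdc25b, -0.36 for Foxd3, -0.68 for Hoxb8, -0.11 for Khsrp, 0.33 for Lin28b, 0.16 for Rps6kb1, -0.82 for Rspo1, -0.13 for Slc16a3, 0.13 for Tfrc, 0.03 for Trp53inp1, 0.01 for Vcan and -0.07 for Zfp771. The polysomal change became -0.39 for Aars2, 0.23 for B3galt1, -0.25 for Ccdc9, 0.02 for Cep83os, -0.27 for Crocc, 0.09 for Fut9, -0.43 for Hspbp1 and 0.50 for Nxt2. The cause was not tested. Low counts limit genes near 0 in the dKO polysomal libraries.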

Other observations

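Among lists not described so far, cytosolic chaperones were mostly negative, with 17 of 23 negative and 4 positive (73.9% and 17.4%, against 45.8% and 43.7% of all tested genes; median -0.41, and -0.14 with the GC adjustment, when 8 were negative and 6 positive). Btf3, a nascent chain chaperone, stood at 114 and 111 CPM in WT total, 130 and 126 in dKO total, 120 and 111 in WT polysomal and 32.3 and 42.6 in dKO polysomal RNA (-1.79 ± 0.15), and kept its value with the adjustment (-2.11). Vbp1, a prefoldin subunit, had a like value (-1.73) that went to -0.00. Fkbp4, an Hsp90 co-chaperone, fell in total RNA (-0.42, adjusted p = 0.00151) and rose in polysomal RNA (0.59), an interaction of 1.01 ± 0.09. Of 27 genes of the endoplasmic reticulum and secretory pathway 16 were negative and 8 positive (59.3% and 29.6%, median -0.43), and 8 and 8 with the GC adjustment (median -0.12). Sec61b, a subunit of the translocon, stood at 73.6 and 74.1 CPM in WT polysomal and 17.3 and 19.2 in dKO polysomal RNA (-1.85 ± 0.16, and -2.18 with the adjustment).

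Of 18 proteasome genes 11 fell and none rose in total RNA, where 12% of all tested genes fell. The interaction gave 9 negative and 3 positive values (50% and 16.7%, median -0.21), and 1 and 7 with the GC adjustment (median 0.11). Psmc3, an ATPase of the 19S cap, fell from 229 and 229 to 157 and 157 CPM in total RNA and rose from 258 and 240 to 508 and 374 CPM in polysomal RNA (1.36 ± 0.16). In glycolysis, Pkm, the pyruvate kinase gene, fell from 892 and 877 to 606 and 612 CPM in total RNA and rose from 790 and 810 to 1360 and 1250 CPM in polysomal RNA (1.24 ± 0.07). Rpph1, the RNA of ribonuclease P, which is not translated, stood at 24500 and 23500 CPM in WT total, 32300 and 32100 in dKO total, 3740 and 3510 in WT polysomal and 16600 and 13600 in dKO polysomal RNA (1.64 ± 0.10, and 0.17 with the GC adjustment).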
